A study of Mus musculus with 4 samples.

Results

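The genes Clu, Ly6a, Anxa1, Anxa3, Msln, Spp1, Il33, Areg and Ereg are known from fetal-like and regenerating intestinal epithelium. They were taken by symbol, and all 9 were present among the 25522 genes of the authors' deposited table without tetracycline and the 26085 genes of the table with tetracycline. RNA came from small-intestinal crypts of male C57BL/6J mice aged 9 weeks that were either fed or fasted for 24 hours. Mice of 1 fed and 1 fasted group received no tetracycline, and those of the other fed and fasted group received this antibiotic for 21 days. The study asked how depletion by tetracycline of AKK, an abbreviation the labels do not spell out, alters the difference between fed and fasted mice.

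The labels list 1 sample in each of the 4 groups, whereas the means in each table were built from 4 libraries, 2 fasted and 2 fed. The values of these libraries were recovered as whole counts for all 9 genes, and are given as normalised counts, that is, counts divided by the size factor of the library. Within a side, the library with the larger size factor is called library 1. The labels do not say whether libraries of one side came from different animals, so the p-values measure only the spread between these libraries, which may be technical. Size factors ranged from 0.93 to 1.09 without and from 0.727 to 1.27 with tetracycline, and the mean normalised counts of all genes summed to 65863261 and 65327199. The direction of the fold change, fasted over fed, was inferred only from how the tables are named, and every direction given here depends on it. In bulk crypts, fewer cells of a type and less RNA per cell cannot be told apart.

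After injury, the intestinal epithelium can turn for a time to a programme that resembles its fetal state, in which the YAP and TAZ coactivators, acting through TEAD factors, take part. Clu, which encodes the secreted chaperone clusterin, marks rare revival stem cells in that setting, and Ly6a, which encodes the surface protein Sca-1, marks fetal-like epithelium. Amphiregulin (Areg) and epiregulin (Ereg) are ligands of the EGF receptor, annexins bind membranes in a calcium-dependent way, osteopontin (Spp1) is a secreted matrix phosphoprotein, interleukin 33 (Il33) is an alarm cytokine, and mesothelin (Msln) is a surface glycoprotein of mesothelium that is also found in fetal-like gut epithelium.

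The upstream sequences are shown first for 3 of the 4 genes with RefSeq windows, none of which was called in either table. Areg had its fasted below its fed libraries in each table. Spp1 had the largest fed excess under tetracycline, and Il33 the highest fed level per exon length under tetracycline. Each sequence is the 250 bases before the RefSeq start on assembly GRCm38.p6, 5′ to 3′, on the plus strand, for chr5:91139349-91139598, chr5:104434861-104435110 and chr19:29924863-29925112, with motif matches in capitals.
Areg: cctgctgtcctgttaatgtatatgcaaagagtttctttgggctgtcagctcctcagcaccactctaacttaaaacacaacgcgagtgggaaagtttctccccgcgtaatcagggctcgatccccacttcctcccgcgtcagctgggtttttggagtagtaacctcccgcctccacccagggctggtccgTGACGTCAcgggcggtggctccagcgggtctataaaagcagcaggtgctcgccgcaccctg
Spp1: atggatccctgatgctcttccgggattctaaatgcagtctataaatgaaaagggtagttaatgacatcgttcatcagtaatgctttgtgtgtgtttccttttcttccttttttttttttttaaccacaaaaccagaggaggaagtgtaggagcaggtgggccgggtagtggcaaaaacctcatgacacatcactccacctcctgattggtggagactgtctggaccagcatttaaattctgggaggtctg
Il33: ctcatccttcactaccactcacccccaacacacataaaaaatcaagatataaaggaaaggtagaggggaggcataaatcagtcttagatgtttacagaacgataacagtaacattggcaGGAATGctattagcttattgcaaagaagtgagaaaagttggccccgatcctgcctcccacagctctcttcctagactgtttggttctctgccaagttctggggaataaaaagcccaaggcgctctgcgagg
The capitals in Areg are a full cAMP response element, TGACGTCA, from 61 to 54 bases before the start, which 1.55% of 32851 RefSeq promoter windows of this length held. The capitals in Il33 are the TEAD core GGAATG from 131 to 126 bases before the start, which, counted on both strands as GGAATG or CATTCC, 12.6% of the windows held. The AP-1 site TGANTCA, held by 6.75% of the windows, was in none of the windows of these genes, and Spp1 held none of the 3 motifs. The other matches were a CATTCC from 236 to 231 bases before the start of Anxa1 and a CATTCC from 107 to 102 bases before a second start of Il33. RefSeq windows were found for 4 of the 9 genes (6 windows), with none for Clu, Ly6a, Anxa3, Msln and Ereg. A match describes letters in a window and not a bound site.

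Clu rose in fasted crypts without tetracycline, and 7 of the other 8 genes had lower fasted than fed means without passing the test. Among these 7, Il33 had near-equal means, with a log2 change of -0.04 in the authors' deposited table. Clu was called at an adjusted p under 0.05 in the authors' deposited table, as were 2.27% of all genes tested there. With tetracycline none of the 9 was called by DESeq2 (4 at an unadjusted p under 0.05), against 0.6% of all genes tested. Among unadjusted p-values under 0.05 in the authors' deposited tables, 4 of the 9 genes were lower in fasted crypts without tetracycline (Ly6a, Areg, Anxa3 and Spp1), where 6.21% of all genes were, and 3 with tetracycline (Spp1, Areg and Anxa3), where 3.06% were. Clu was on the higher side at that threshold in both tables. The median log2 change of the 9 genes in the authors' deposited tables was -0.78 without and -1.13 with tetracycline, against 0.02 and -0.02 over all genes whose mean was 1 or more. Without fed library 1, the median with tetracycline was -0.67.

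Clu (ENSMUSG00000022037, plus strand, chr14:65968483-65981547 on GRCm38) had the largest difference of the 9. Without tetracycline the fasted libraries held 2864 and 681 normalised counts and the fed libraries 69.5 and 107. Both fasted libraries were above both fed ones, and 80.8% of the fasted signal lay in fasted library 1. The fasted mean of 1772 was 20.0 times the fed mean of 88.5, and the log2 change in the authors' deposited table was 4.32 (SE 0.98, adjusted p 0.00128, DESeq2). Without fasted library 1, the log2 ratio of the remaining means was 2.94, and without fasted library 2 it was 5.02.

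With tetracycline, Clu held 243 and 414 normalised counts in the fasted and 129 and 159.6 in the fed libraries. The fasted libraries again lay above the fed ones, at a mean of 328 against 144, or 2.27 times. The log2 change in the authors' deposited table was 1.18 (SE 0.50, unadjusted p 0.0177, adjusted p 0.682, DESeq2), which did not pass the test. Clu was the only one of the 9 genes with both fasted libraries above both fed libraries, in either table. Of all genes with a mean of 40 to 1000 whose libraries were recovered, 23.5% had that order without and 16.5% with tetracycline.

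**Figure D1:**
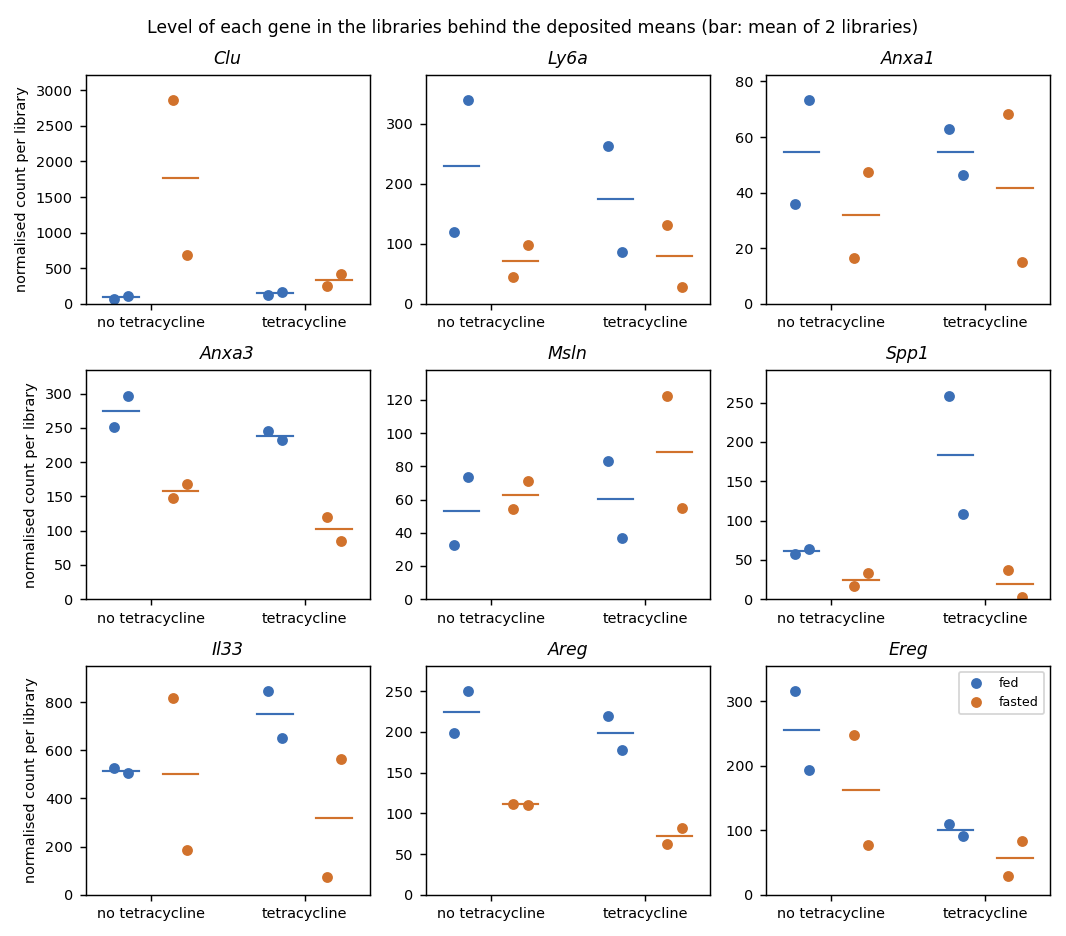
Normalised counts of the 9 genes in each recovered library (linear axis from 0), with fed and fasted libraries side by side and the tables without and with tetracycline apart. Each point is 1 library and each bar the mean of 2; Clu in fasted crypts without tetracycline reached 2864 and 681 against 69.5 and 107 in fed crypts.

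The EGF receptor ligands Areg and Ereg are neighbours on the plus strand of chromosome 5. Areg (ENSMUSG00000029378, chr5:91139599-91148432) starts 46.0 kb after the end of Ereg (ENSMUSG00000029377, chr5:91074622-91093646), with no annotated gene between them. Areg held 111.0 and 110.8 normalised counts in the fasted and 198 and 250.2 in the fed libraries without tetracycline. With tetracycline it held 62.5 and 82.5 in the fasted and 219.7 and 178 in the fed libraries. Both fasted libraries were thus below both fed libraries in each table, and fed means were 2.02 and 2.74 times the fasted means. The log2 changes of Areg in the authors' deposited tables were -1.02 (SE 0.37, adjusted p 0.157) and -1.46 (SE 0.50, adjusted p 0.281), neither past the test of DESeq2.

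Ereg was more scattered among the fasted libraries. It held 248 and 77.4 normalised counts in the fasted and 316 and 194 in the fed libraries without tetracycline, so that the sides overlapped. Under tetracycline the values were 29.6 and 83.9 fasted against 110.2 and 90.6 fed, with no overlap. Its log2 changes in the authors' deposited tables were -0.65 (SE 0.52, adjusted p 0.764, DESeq2) and -0.84 (SE 0.69, adjusted p 0.9999). An antisense gene, Gm19610, overlaps the span of Ereg, and the library kit did not keep the strand. Reads from any exon sequence that the pair shares cannot be told apart by strand, and overlap of exons was not measured.

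Among the annexins, Anxa3 (ENSMUSG00000029484, plus strand, chr5:96793339-96845966) showed the same order of libraries in each table. Without tetracycline it held 148 and 169 normalised counts in the fasted and 252 and 297 in the fed libraries, and with tetracycline 120.1 and 85.3 against 245 and 233. Fed means were 1.74 and 2.33 times the fasted means, with no overlap of the sides. The log2 changes in the authors' deposited tables were -0.80 (SE 0.35, adjusted p 0.317) and -1.21 (SE 0.48, adjusted p 0.553), neither past the test of DESeq2. A second gene model, Gm42603, overlaps Anxa3 on the same strand, and its reads may not be separable.

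Anxa1 (ENSMUSG00000024659, minus strand, chr19:20373428-20390944) encodes a mediator that dampens inflammation and is abundant in myeloid cells. It held 16.5 and 47.3 normalised counts in the fasted and 35.7 and 73.3 in the fed libraries without tetracycline. With tetracycline the values were 68.3 and 15.1 fasted against 63.0 and 46.4 fed. The sides overlapped in each table, and the log2 changes in the authors' deposited tables were -0.78 (SE 0.71, adjusted p 0.816, DESeq2) and -0.38 (SE 0.86, adjusted p 0.9999). The noncoding gene 1500015L24Rik overlaps the span of Anxa1 on the opposite strand, which may limit these counts in the same way as those of Ereg.

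Spp1 (ENSMUSG00000029304, plus strand, chr5:104435118-104441050) had the lowest fasted level of any of the 9 genes in a single library. Without tetracycline it held 16.5 and 33.3 normalised counts in the fasted and 57.6 and 64.3 in the fed libraries, a fed mean 2.44 times the fasted one. With tetracycline it held 37.0 and 2.75 in the fasted libraries, which rest on 45 and 2 counts, and 259 and 108 in the fed libraries, which rest on 329 and 100 counts. Fasted libraries lay below fed ones in each table, and the fed mean under tetracycline was 9.22 times the fasted mean. The log2 changes in the authors' deposited tables were -1.30 (SE 0.64, adjusted p 0.422, DESeq2) and -3.17 (SE 0.97, adjusted p 0.127), neither past the threshold. The gene model Gm42793 overlaps Spp1 on the same strand.

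Ly6a (ENSMUSG00000075602, minus strand, chr15:74994877-74998031), a gene also expressed by lymphocytes and endothelium, came closest to a call among the genes with lower fasted means. It held 44.0 and 97.9 normalised counts in the fasted and 119 and 339.6 in the fed libraries without tetracycline. The sides did not overlap, but the fed libraries were themselves far apart. In the authors' deposited table the log2 change was -1.70 (SE 0.56, adjusted p 0.0859, DESeq2), and the fed mean was 3.23 times the fasted mean. Without fed library 2 the log2 ratio of the remaining means was -0.75. With tetracycline the values were 132 and 27.5 fasted against 263 and 86.3 fed, which overlapped, and the authors' deposited table gave a log2 change of -1.13 (SE 0.85, adjusted p 0.9999, DESeq2). Ly6a belongs to a family of closely related genes, Ly6c1 and Ly6c2 among them, and its counts are uncertain to the extent that reads were shared.

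Il33 (ENSMUSG00000024810, plus strand, chr19:29925114-29960718) had near-equal means in the absence of tetracycline. The fasted libraries held 816 and 185 normalised counts and the fed libraries 525 and 504, so that the fed values lay between the fasted ones. With tetracycline the values were 74.1 and 565 fasted against 846 and 653 fed, with both fasted libraries below and the fed mean 2.34 times the fasted mean. The log2 ratio with tetracycline was -3.34 without fasted library 2 and -0.41 without fasted library 1. The log2 changes in the authors' deposited tables were -0.04 (SE 0.52, adjusted p 0.993, DESeq2) and -1.23 (SE 0.81, adjusted p 0.9999).

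Msln (ENSMUSG00000063011, minus strand, chr17:25748613-25754378) was the other gene besides Clu with a higher fasted than fed mean. It held 54.1 and 71.0 normalised counts in the fasted and 32.7 and 73.3 in the fed libraries without tetracycline, and 123 and 55.0 against 83.5 and 36.7 with it. The sides overlapped in each table. The log2 changes in the authors' deposited tables were 0.24 (SE 0.59, adjusted p 0.964, DESeq2) and 0.57 (SE 0.73, adjusted p 0.9999).

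**Figure D2:**
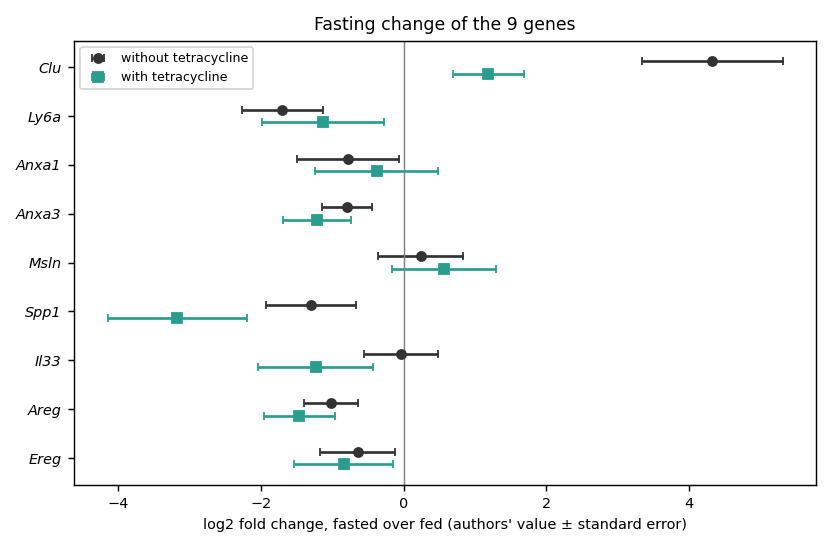
Log2 fold change of fasted over fed with its standard error for the 9 genes, from the authors' deposited tables without and with tetracycline. Clu at 4.32 without tetracycline is the called value; Spp1 at -3.17 with tetracycline lies farthest below 0 and was not called.

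Counted by the order of libraries, 4 of the 9 genes had both fasted libraries below both fed libraries without tetracycline (Ly6a, Anxa3, Spp1 and Areg). That order held for 24.8% of all genes with a mean of 40 to 1000. With tetracycline 5 of the 9 had it (Anxa3, Spp1, Il33, Areg and Ereg), against 16.2% of all such genes. Areg, Anxa3 and Spp1 had it in each table, as did 7.77% of the 5725 genes with such means in each. Libraries of one side often lay far apart: the fasted libraries differed by more than 2 times in 6 of the 9 genes in each table, and the fed libraries in 3. Areg and Anxa3 stayed within 2 times on every side. Under tetracycline, fed library 1 was higher than fed library 2 in 8 of the 9 genes, all but Clu.

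Per exon length the genes covered a wide range in fed crypts. Without tetracycline, Ly6a (190.3), Areg (184.6) and Il33 (178.3) had the highest fed levels in normalised counts per kb of exon, followed by Anxa3 (75.4), Ereg (61.7), Spp1 (37.0), Clu (25.7), Anxa1 (18.7) and Msln (17.3). The libraries of neighbours in this order overlapped among the leading 3 genes, between Anxa3 and Ereg, and from Clu through Anxa1 to Msln. They did not overlap between Il33 and Anxa3, between Ereg and Spp1, or between Spp1 and Clu. In fasted crypts without tetracycline Clu was first at 515.6, ahead of Il33 at 173.5 and Areg at 91.3. Under tetracycline Il33 led in fed (259.6) and in fasted crypts (110.8), and fasted Clu was next at 95.6, again in normalised counts per kb. The fasted libraries of Clu and Il33 overlapped in each table, and those of Areg without tetracycline lay within the span of Il33 and below both of Clu, so the fasted orders of Il33 with Clu and with Areg are not beyond the library spread.

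Other cells of the gut wall were measured through marker lists, because several of these genes are also expressed outside the epithelium. All 10 epithelial markers were present, with means from 12497 to 184435 normalised counts without tetracycline, and none was called in either table by DESeq2 (3 and 0 at an unadjusted p under 0.05). T and B lymphocyte markers (11 of 12 in each table, Trac not listed) had medians of -1.11 and -1.73 on the log2 scale in the authors' deposited tables. Among them, the B cell genes Cd79a, Cd79b and Ms4a1 fell without tetracycline, and no marker of the list was called with it by DESeq2, where 4 had an unadjusted p under 0.05. Summed over the 7 lymphocyte markers with recovered libraries, the fasted libraries without tetracycline held 722 and 1529 and the fed ones 2867 and 4958 normalised counts. Over 6 such markers with tetracycline, the sums were 2024 and 90.8 fasted against 6042 and 1331 fed. Under tetracycline, fasted library 2, with the lowest sum, also had the lowest Ly6a, Anxa1, Anxa3 and Spp1, and fed library 1, with the highest sum, had the highest Ly6a, Anxa3, Spp1, Il33, Areg and Ereg. Other genes went the other way on the fasted side. Il33 (74.1 against 565), Areg (62.5 against 82.5), Ereg (29.6 against 83.9) and Clu (243 against 414) were lower in fasted library 1 than in fasted library 2. Without tetracycline, fasted library 1, with the lowest sum, had the lowest Ly6a, Anxa1, Anxa3 and Spp1, and fed library 2, with the highest sum, the highest Ly6a, Anxa1, Anxa3, Msln, Spp1 and Areg. There Clu (2864 against 681), Il33 (816 against 185) and Ereg (248 against 77.4) were higher in fasted library 1 than in fasted library 2. Il33 and Ereg were also higher in fed library 1 than in fed library 2.

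Macrophage and monocyte markers (10 of 10 listed) had medians of -1.10 and -1.36 on the log2 scale in the authors' deposited tables. Without tetracycline 9 of the 10 changes were below 0, 6 had an unadjusted p under 0.05 and Lyz2 was the 1 gene called, and with it none was called by DESeq2 (5 at an unadjusted p under 0.05). Their sums were 1616 and 2029 fasted against 2740 and 4626 fed over 10 markers without tetracycline, and 1907 and 863 against 3776 and 2481 over 9 markers with it. Fibroblast and smooth muscle markers (10 of 10) had medians of -1.28 and -1.10, with Col1a1, Col1a2 and Col3a1 called lower without tetracycline and none called with it (2 at an unadjusted p under 0.05), in the authors' deposited tables. Their sums were 351 and 586 fasted against 701 and 1940 fed without tetracycline, and 778 and 395 against 917 and 618 with it. These markers thus had lower fasted medians alongside Ly6a, Anxa1, Anxa3, Spp1 and Areg, and their part in the values of those genes was not tested.

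Among neutrophil and mast cell markers (8 of 8), the mast cell proteases Mcpt1 and Mcpt2 fell without tetracycline and Mcpt1 fell with it in the authors' deposited tables. The sums of this list were 338 and 445 fasted against 1534 and 874 fed without tetracycline (6 markers, Kit and Mcpt1 left out). With tetracycline they were 803 and 281 against 2838 and 1566 (7 markers, Kit left out, S100a8 at 0 in a library). Mcpt1, at 1871 in fed library 1, entered only the sums with tetracycline, so the sums cannot be compared between the tables. Endothelial markers had no call in either table by DESeq2 (none at an unadjusted p under 0.05), with sums of 470 and 688 fasted against 556 and 599.8 fed without tetracycline (8 markers, Emcn and Cldn5 not listed). With tetracycline their sums were 837 and 274 against 909.5 and 549 (10 markers, Kdr, Emcn and Cldn5 at 0 in a library). Mesothelial markers, which bear on Msln, summed to 377 and 231 fasted against 203 and 460.1 fed without tetracycline and to 286 and 257 against 306 and 219 with it. None of these 6 was called in either table by DESeq2 (none at an unadjusted p under 0.05). Wt1 and Krt14 were at 0 in a library in each table, and Lrrn4 in the table without tetracycline. Upk1b was the most abundant mesothelial marker, at 338 and 148 fasted against 179 and 259 fed without tetracycline. On each side of each table, every mesothelial marker but Upk1b was higher in the same library as Msln. Upk1b was higher in the other library on the fasted side of each table. The part of mesothelial cells in the Msln values was not tested.

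**Figure D3:**
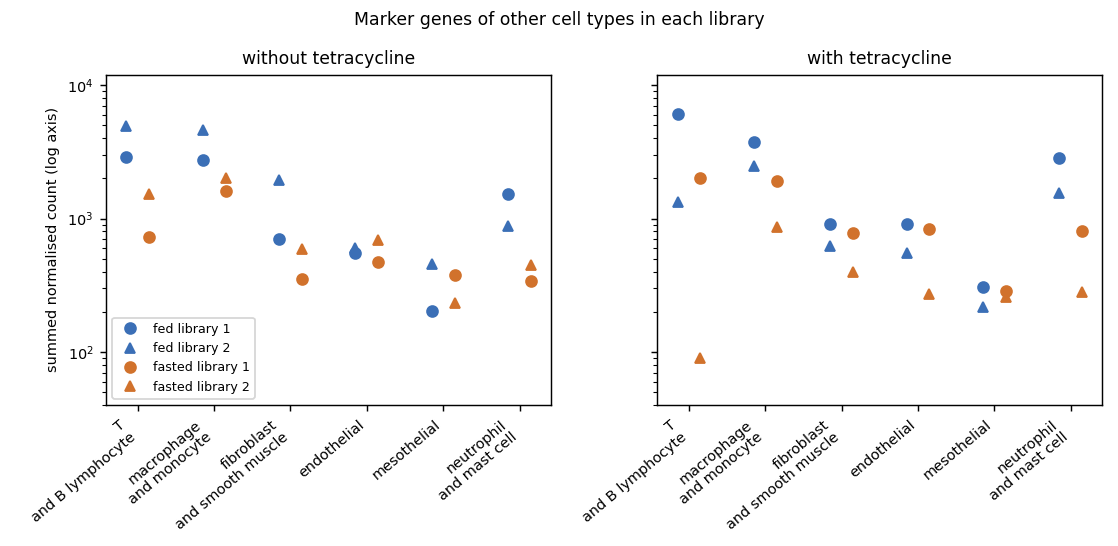
Summed normalised counts of marker lists for other cell types in each recovered library, fed and fasted, without and with tetracycline (log axis). Lymphocyte sums under tetracycline spread from 90.8 in fasted library 2 to 6042 in fed library 1. Markers without recovered libraries are left out, so the sums of a list may cover different genes in each table.

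Tetracycline was then examined as a modifier of the fasting change. The difference of the log2 changes, with minus without tetracycline, was -3.14 for Clu (SE 1.10, unadjusted p 0.0044, adjusted p 0.99997, a Wald test over 17571 genes). Without fasted library 1 of the table without tetracycline it was -1.76. Clu was the only one of the 9 genes with an unadjusted p under 0.05 for the difference, as 185 of the 17571 genes tested were, and none of the 9 passed the adjusted threshold, which 0.0228% of the genes did. The change of Clu in 1 table and not the other is therefore not shown to differ between them after adjustment. Spp1 had a difference of -1.87 (SE 1.16) and Il33 of -1.19 (SE 0.96). Leaving out 1 library moved the former to between -4.76 and -1.01 and the latter to between -3.30 and 0.24. The other 6 differences lay between -0.45 for Areg (SE 0.62) and 0.57 for Ly6a (SE 1.02), each smaller than its standard error.

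Levels with and without tetracycline cross the 2 tables, which were scaled apart, so no test was made. With the median ratio of 21925 genes set to 0, fed crypts with tetracycline had log2 ratios to fed crypts without it of 1.52 for Spp1, 0.65 for Clu and 0.48 for Il33, of -1.40 for Ereg and -0.46 for Ly6a, and between -0.27 and 0.12 for the other 4. Fasted crypts had ratios of -2.50 for Clu and -1.60 for Ereg, and between -0.72 and 0.44 for the other 7 genes. Without fasted library 1 of the table without tetracycline, the fasted ratio was -1.12 for Clu and -0.51 for Ereg. With all libraries, Ereg was thus the gene with a lower level under tetracycline by more than 1 log2 unit on both the fed and the fasted side. Its fed libraries, 316 and 194 without and 110.2 and 90.6 with tetracycline, did not overlap, whereas its fasted libraries, 248 and 77.4 without and 29.6 and 83.9 with it, did.

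The genes with the 4 group levels most like those of Clu, among 13194 genes whose mean was 50 or more in each table, were Acacb, Mt2 and Cyp4a32, at Euclidean distances of 1.41, 1.48 and 1.53 between centred log2 profiles. Acacb, an acetyl-CoA carboxylase, rose by 3.44 without and 2.57 with tetracycline on the log2 scale in the authors' deposited tables (adjusted p 2.99e-28 and 0.004, DESeq2). Mt2, a metallothionein, rose by 3.33 and 2.72 in the authors' deposited tables (adjusted p 2.68e-22 and 1.96e-07, DESeq2). Cyp4a32, a fatty acid hydroxylase, rose by 2.54 without tetracycline (adjusted p 0.000976, DESeq2) and had a change of 1.56 with it (adjusted p 0.354) in the authors' deposited tables. Cyp4a32 has close copies in its gene family, so its counts are uncertain. All 3 are nearest by a measure that includes the fasting change of Clu itself.

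Other genes of the fetal-like and injury-associated programme had medians of -0.50 and -0.35 on the log2 scale over 12 genes. Sprr1a, which encodes a small proline-rich protein of stressed epithelia, fell in each table. It held 95.4 and 48.4 normalised counts in the fasted and 443.6 and 402 in the fed libraries without tetracycline, and 41.1 and 23.4 against 271 and 164 with it. Its log2 changes in the authors' deposited tables were -2.55 (SE 0.40, adjusted p 1.26e-07, DESeq2) and -2.74 (SE 0.60, adjusted p 0.00168). Ly6d, of the Ly6 family, fell without tetracycline at -1.61 (SE 0.49, adjusted p 0.0425, DESeq2) in the authors' deposited table. Its fed libraries lay far apart, at 222 and 692 normalised counts against 135 and 165 fasted, so the size of its fall rests largely on fed library 2. The remaining 10 genes were not called in either table, and S100a6, with a change of -1.02 and an adjusted p of 0.0713 by DESeq2 without tetracycline in the authors' deposited table, came closest.

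None of the YAP and TAZ target genes was called in the authors' deposited tables by DESeq2 (3 of 20 without and 0 of 21 with tetracycline at an unadjusted p under 0.05). The medians were 0.25 and -0.27, with 14 of 20 and 8 of 21 changes above 0. The 3 most abundant of them without tetracycline, Dock5, Nuak2 and Nt5e, had log2 changes of 0.33, -0.33 and 0.53 without tetracycline and of -0.49, -0.54 and -0.36 with it in the authors' deposited tables. The 14 YAP and TAZ pathway components had medians of 0.07 and -0.01, and none was called by DESeq2 (1 and 0 at an unadjusted p under 0.05).

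Areg and Ereg belong to a ligand family whose other 7 members had medians of 0.32 and 0.01, with none called by DESeq2 (0 and 1 at an unadjusted p under 0.05). Tgfa, Hbegf and Nrg4, the most abundant of them without tetracycline, had log2 changes of 0.14, -0.64 and 0.49 there in the authors' deposited table. Of the 8 measured EGF-family receptors and modulators, 2 rose without tetracycline. Erbb3, a receptor of the family, rose by 1.05 (SE 0.25, adjusted p 0.00285, DESeq2), and Rhbdf1, an inactive rhomboid that takes part in ligand shedding, rose by 1.09 (SE 0.28, adjusted p 0.00711, DESeq2) in the authors' deposited table. Rhbdf1 held 881 and 965 normalised counts in the fasted and 417 and 448 in the fed libraries. With tetracycline none of the 8 was called by DESeq2 (2 at an unadjusted p under 0.05), and the changes of Erbb3 and Rhbdf1 were 1.25 (adjusted p 0.809) and 1.19 (adjusted p 0.158) in the authors' deposited table.

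Among other annexins and formyl peptide receptors, none was called without tetracycline by DESeq2 (1 of 11 at an unadjusted p under 0.05), and Anxa10 fell with it. Anxa10 held 13.99 and 12.4 normalised counts in the fasted and 113 and 252 in the fed libraries with tetracycline. Its log2 change was -3.78 (SE 0.69, adjusted p 2.84e-05, DESeq2) with and -0.85 (adjusted p 0.839) without tetracycline in the authors' deposited tables. Of the other Ly6 genes, Ly6g6c fell besides Ly6d without tetracycline, at -3.78 (SE 1.12, adjusted p 0.036, DESeq2) per the authors' deposited table, with fed libraries of 8.93 and 87.4 normalised counts. All 6 measured Ly6 genes without and all 7 with tetracycline had log2 changes below 0, and none was called with tetracycline by DESeq2 (1 at an unadjusted p under 0.05).

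**Figure D4:**
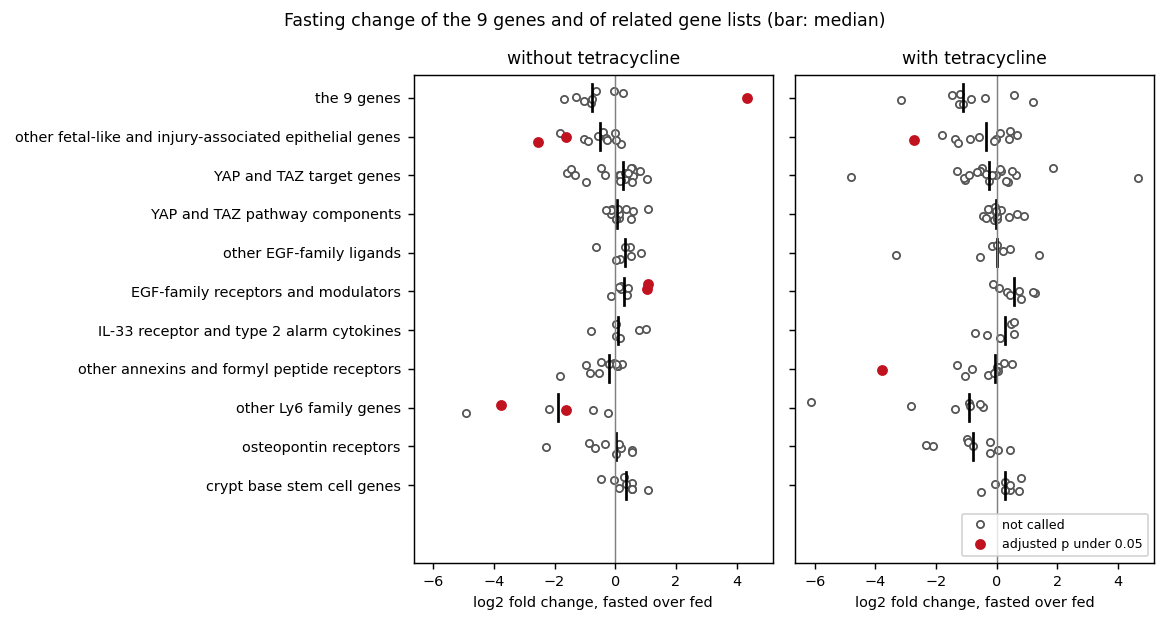
Log2 fold change of fasted over fed for each gene of the 9 and of the related lists, without and with tetracycline, with the list median as a bar and called genes filled. The median of the 9 genes was -0.78 without and -1.13 with tetracycline.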

How the data were processed

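The material was 2 tables of the authors' own DESeq2 comparisons. Salmon, DESeq2 and mm10 are named, without versions, in the submitters' processing notes. Per the file headers, the authors' mean is a signal (counts divided by size factors), their fold change and standard error are on the log2 scale, their statistic is a score, and their p-values are also given Benjamini-Hochberg adjusted. An adjusted p under 0.05 is a call.

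Each deposited mean adds up whole counts, each weighted by a constant of its library. Solving for the counts gave 4 libraries per table. At means of 40 to 1000, 1 set of counts was found for all 6177 genes without tetracycline and for 99.2% of 6235 with it, and the log2 changes rebuilt from them deviated from the deposited ones by a median of 0.00079 and 0.0026. The method was tested on simulated data. These libraries cannot be tied to labelled samples, so no SD or count model was used. No per-sample column was left unused (0).

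The fasting changes were compared by a two-sided Wald test over the 17571 genes with an adjusted p in both tables. Gene positions came from GENCODE mouse release M21 (GRCm38) and upstream sequences from RefSeq. Named are the 9 genes; from each other list, called genes and otherwise at most the 3 most abundant; and the 3 genes most like Clu; S100a6, Ly6c1, Ly6c2 and the genes in the closing section outside this rule were picked after their values were seen. The genes and lists were chosen with earlier results of these data known, and the cAMP response element was added after the sequences were seen. Protein identities were not analysed here, and 1 marker gene is not reported here. Python 3.11.15, scipy 1.17.1 and statsmodels 0.14.6 were used.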

Additional observations from a re-analysis of the deposited data

How the results depend on the processing

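With the threshold on the adjusted p at 0.1, 2 genes of the 9 were called without tetracycline, since Ly6a (adjusted p 0.0859, DESeq2) joined Clu; at 0.01 Clu remained the 1 call. Leaving out 1 library at a time changed the sign of 5 values: Msln ranged from -0.23 to 0.93 without and from -0.13 to 1.28 with tetracycline, Il33 without tetracycline from -1.48 to 0.67, Anxa1 with tetracycline from -1.85 to 0.32, and the difference of the fasting changes of Il33, an alternative added after seeing the data, from -3.30 to 0.24. The median of the 9 genes ranged from -0.91 to -0.67 without and from -1.27 to -0.67 with tetracycline. Clu without tetracycline ranged from 2.94 to 5.02, and Spp1 with tetracycline from -6.06 to -2.31. Ly6a ranged from -2.38 to -0.75 without and from -2.67 to -0.12 with tetracycline, Il33 with tetracycline from -3.34 to -0.41, Ereg from -1.72 to -0.04 and from -1.76 to -0.26, and Anxa1 without tetracycline from -1.72 to -0.16. Chosen after seeing the data, the count of genes with every fasted library below every fed one was repeated without each library in turn, and ranged from 5 to 6 without (4 with all libraries) and from 5 to 7 with tetracycline (5); leaving out a library can only keep or raise this count, so it is no sign of stability. Of the other settings for single genes, 160 values stayed within the spread between libraries and 19 moved beyond it with the same sign. Libraries per side are few, and the lowest Spp1 value rests on 2 counts, so counting error alone is large there. No paired analysis was possible because the labels carry no replicate numbers.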

Other observations

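Receptors and partners of these genes, and stem cell genes of the crypt base, were measured alongside them. Of the 9 osteopontin receptors none was called by DESeq2 in either table (0 and 1 at an unadjusted p under 0.05), and their medians in the authors' deposited tables were 0.04 (no tetracycline) and -0.78 (tetracycline). Itgb3, a subunit of the osteopontin-binding integrin, had a log2 change of -2.09 (SE 0.90, adjusted p 0.722, DESeq2) with tetracycline in the authors' deposited table. None of the 6 genes for the IL-33 receptor and type 2 cytokines was called by DESeq2 (1 and 0 at an unadjusted p under 0.05), and their medians in the authors' deposited tables were 0.09 and 0.29. Il1rl1, which encodes the IL-33 receptor ST2, had log2 changes of -0.82 (SE 0.86, adjusted p 0.854, DESeq2) and -0.73 (SE 1.01, adjusted p 0.9999) in these deposited tables, against 5 of 6 and 4 of 6 changes above 0 in the list. None of the 9 stem cell genes was called by DESeq2 (1 and 0 at an unadjusted p under 0.05), and their medians were 0.36 and 0.27. Olfm4, the most abundant, had log2 changes of -0.46 and -0.51 in the authors' deposited tables. Lgr5, the classical marker of crypt base stem cells, had log2 changes of 1.06 (SE 0.34, adjusted p 0.0711, DESeq2) and 0.78 (SE 0.68, adjusted p 0.9999) in the authors' deposited tables. The Lgr5 libraries with tetracycline overlapped, at 1515 and 399 normalised counts fasted against 391 and 722 fed.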
